A study of Mus musculus with 21 samples.

Results

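Activated CD4 T cells that had been given transforming growth factor beta (TGFB) and did not show the reporter hCD2 were compared with activated cells given no TGFB. The comparison rests on 10 of the 21 arrays of the series, 5 in each group, chosen by their sample titles, and on 14860 genes with a gene symbol of their own. All cells of both groups came from spleen of Marilyn mice with the genotype marilynfoxp3hCD2, whose transgenic T cell receptor recognises a male (HY) antigen, and were cultured and activated. The cell type given for the untreated cells is CD4+CD2, with no word on the species of that CD2. The TGFB cells are labelled CD4+hCD2-, and a further 5 arrays of CD4+hCD2+ cells from TGFB cultures serve below to show where the hCD2-negative cells differ from them. The sources used here give no dose or length of the TGFB treatment, no age of the mice and no element that drives hCD2. Replicates 1 to 3 of each group belong to study 1 and replicates 4 and 5 to study 2, and every difference below was fitted with a term for study. Samples are labelled as biological replicates, but no animal or culture is named. Each p-value therefore sets a difference only against the spread between arrays, estimated from all 21 arrays of the series.

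TGFB is secreted in a latent form that integrins release. The free cytokine binds a receptor pair of TGFBR2 and TGFBR1, which phosphorylates SMAD2 and SMAD3, and these enter the nucleus with SMAD4. In CD4 T cells the cytokine is known to restrain division, Th1 and Th2 differentiation and cytotoxic genes, and to induce Foxp3, the transcription factor of regulatory T cells, in some of the cells. The comparison of reporter-negative with untreated cells addresses what differs in a TGFB culture among cells with little Foxp3.

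The transcript cluster shared by Foxp3 and its neighbour Flicr read 6.33, 6.38, 5.95, 6.31 and 6.54 in untreated replicates 1 to 5 (deposited log2 level) and 6.47, 6.35, 6.73, 6.96 and 7.08 in hCD2-negative replicates. The groups overlapped, with a log2 difference of 0.42 (95% interval -0.13 to 0.96, limma adjusted p = 0.303). With quantile normalization, described below, it was 0.62 (0.18 to 1.06, adjusted p = 0.0511). With arrays centred on their medians it was 0.59 (0.07 to 1.11, adjusted p = 0.115). Both missed the threshold, with intervals on the positive side, so a small excess in hCD2-negative cells remains possible. The hCD2-positive arrays lay between 9.23 and 11.68, above every array of the other groups. The levels of this cluster therefore follow the labels of the sort.

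Over the 14860 genes, limma called 2811 (18.9%) at an adjusted p under 0.05, 304 higher (2.05%) and 2507 lower (16.9%) in hCD2-negative cells. The groups did not overlap in 1506 genes (10.1%), 163 of them higher (1.1%) and 1343 lower (9.04%). In bulk samples such as these, fewer cells of a kind and less of a transcript per cell cannot be told apart. The balance of higher and lower calls depended on the scale of the arrays. Interquartile ranges of the array values lay between 2.74 and 3.14 in untreated and between 2.23 and 2.84 in hCD2-negative arrays, with hCD2-negative replicates 1, 3 and 4 narrowest (2.33, 2.23 and 2.47). Quantile normalization, which gives each array the same distribution, called 3401 genes, 1676 higher (11.3%) and 1725 lower (11.6%), and moved the median log2 difference over all genes from -0.09 to 0.05. It turned the direction of 27 of the 2811 calls, and 294 genes (1.98%) were higher and 1672 (11.3%) lower on both scales. The count of 2811 became 1817 without hCD2-negative replicate 4 and 1857 without hCD2-negative replicate 3. With the narrow arrays left out (replicates 1, 3 and 4 of the hCD2-negative cells, replicate 3 of the hCD2-positive cells), 1010 genes were called, 295 higher (1.99%) and 715 lower (4.81%). Of the hCD2-negative cells this leaves only replicates 2 and 5, so a change of scale and a loss of arrays cannot be told apart there. Most lists of genes below are therefore given with their counts and medians on both scales, and a "deposited" value is one on the authors' scale. Calls also depended on level. In groups of similar size by mean level, 3.82%, 10.8%, 24.2% and 28.6% of genes were lower as deposited, from dimmest to brightest. After quantile normalization these shares were 5.03%, 8.9%, 14.5% and 18.0%. The 16.9% of all genes is thus a low standard for lists of bright genes and a high one for dim ones.

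**Figure D1:**
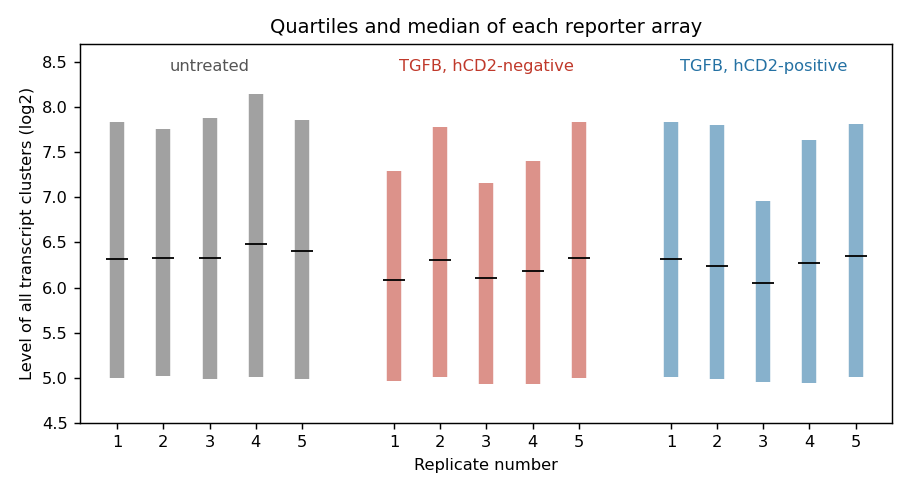
Lower quartile, median and upper quartile of the deposited log2 values on each of the 15 reporter arrays, in untreated, TGFB hCD2-negative and TGFB hCD2-positive cells. Lower quartiles lie between 4.93 and 5.02 throughout, while the spread above them is smaller on hCD2-negative replicates 1, 3 and 4 and on hCD2-positive replicate 3.

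**Figure D2:**
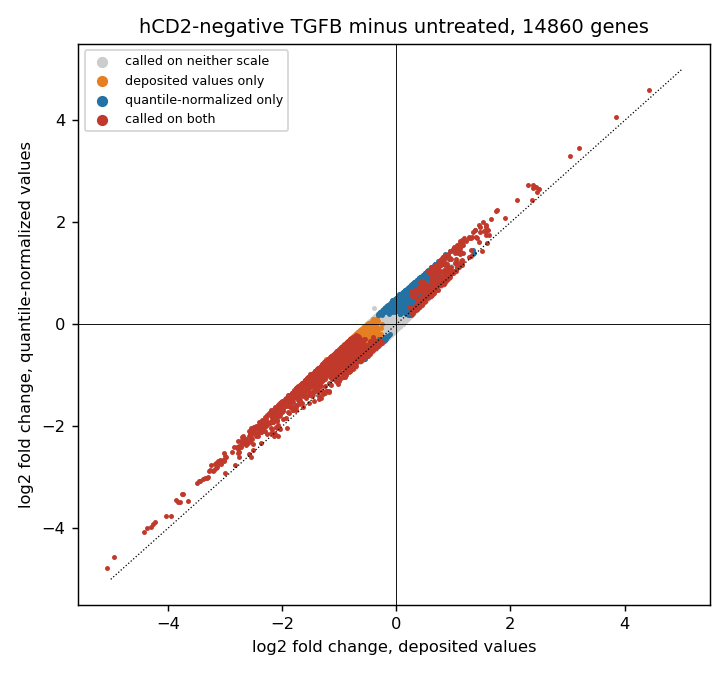
Log2 fold changes of the genes (hCD2-negative minus untreated) on the deposited values and after quantile normalization. Lower genes make up 89.2% of the calls on the deposited values and 50.7% after quantile normalization.

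Among the TGFB ligands and the proteins that hold and release them few genes were called. Of 11 measured genes, 0 rose and 3 fell, and the list's median log2 difference was -0.37 (0.03 after quantile normalization, with 1 higher and 3 lower). Over all genes 2.05% rose and 16.9% fell, and in the brighter groups by level 24.2% and 28.6% fell. The count therefore does not set this list apart. Tgfb1, the main TGFB gene of lymphocytes, read 10, 10.07, 10.22, 10.80 and 9.56 in untreated and 8.68, 9.20, 8.57, 9.25 and 9.61 in hCD2-negative arrays. Untreated replicate 5 lay just below the highest hCD2-negative array, so the groups overlapped, and the fit gave a fall of 2.1-fold (log2 -1.07 ± 0.25, SE, limma adjusted p = 0.00549). Itgav, the integrin alpha V chain that releases active TGFB, fell without overlap, from 9.53 to 10.33 in untreated down to 7.95 to 8.90 in hCD2-negative arrays (log2 -1.49 ± 0.27, adjusted p = 0.000766). Its partner chains Itgb1 (log2 -1.86) and Itgb3 (-2.31) fell as well. Nrros, which tethers latent TGFB on myeloid cells, fell by 1.01 on the log2 scale (adjusted p = 0.00434). After quantile normalization Tgfb1 and Nrros differed by -0.58 and -0.58. Without the narrow arrays both missed the threshold (limma adjusted p = 0.1625 and 0.145). Tgfb2 and Tgfb3 lay between 5.0 and 7.45 on the untreated arrays and missed the threshold (log2 0.06 and -0.53, adjusted p = 0.645 and 0.261).

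Few receptors of the family passed the test, with 1 gene of 11 higher and 1 lower and a median of -0.09 (4 and 1, and 0.29, after quantile normalization; 2 higher with the replicate block, and 0 lower without untreated replicate 1, 3 or 5 or hCD2-negative replicate 1, 3 or 4). Acvr2a, a type II receptor for activins, was the one that rose. Its untreated arrays read 5.69, 6.13, 6.44, 5.61 and 5.56, and its hCD2-negative arrays 8.05, 9.03, 7.95, 6.82 and 7.07. No array overlapped, and the rise was 3.7-fold (log2 1.90 ± 0.32, limma adjusted p = 0.000389). For Tgfbr2, the receptor that binds TGFB itself, untreated arrays lay between 8.49 and 9.04 and hCD2-negative arrays between 8.75 and 10.14. Its log2 difference of 0.68 missed the threshold on the deposited values (limma adjusted p = 0.0624). It passed with the replicate number as a block (adjusted p = 0.0295), after quantile normalization (1.19) and without hCD2-negative replicate 3 (0.81, adjusted p = 0.0463). Tgfbr1, the signalling chain, differed by -0.20 (adjusted p = 0.584) and had the opposite sign, 0.29, after quantile normalization. Bmpr1a, a receptor for bone morphogenetic proteins, fell by 0.89 on the log2 scale (adjusted p = 0.022), a call lost without any one of untreated replicates 1, 3 and 5 or hCD2-negative replicates 1, 3 and 4 (adjusted p = 0.0505 to 0.0701).

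Of 23 genes of the SMAD pathway and its feedback inhibitors, 3 rose and 5 fell, with a median of -0.02 (10 and 3, and 0.29, after quantile normalization). Of all genes 2.05% rose and 16.9% fell. This list was bright, with mean levels from 7.78 to 8.27 on untreated arrays, whose medians were 6.32 to 6.48. Of the brightest genes 28.6% fell, so 16.9% is a low standard for it. The 3 that rose were the inhibitor genes Ldlrad4, Smad7 and Skil. Ldlrad4, which keeps SMAD2 and SMAD3 from the receptor, read 6.59, 6.37, 6.66, 7.0 and 7.71 in untreated and 8.60, 9.46, 8.84, 9.47 and 9.94 in hCD2-negative arrays. All hCD2-negative arrays lay above all untreated ones, a 5.3-fold rise (log2 2.40 ± 0.25, limma adjusted p = 3.98e-06). Smad7, the inhibitory SMAD that blocks and helps degrade the receptor, rose by 1.05 ± 0.25 (adjusted p = 0.00638), from 7.25 to 8.63 in untreated and to 8.27 to 9.58 in hCD2-negative arrays. Skil, a co-repressor of SMADs, differed by 0.81 (adjusted p = 0.0473), and this call was lost without any of the untreated arrays or hCD2-negative replicates 1, 2 and 5 (adjusted p = 0.0727 to 0.109).

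Smad3 itself fell. Untreated arrays read 8.38, 8.42, 8.5, 9.15 and 9.07, and hCD2-negative arrays 7.04, 7.29, 7.19, 7.35 and 8.14. The groups did not overlap, and the fall was 2.5-fold (log2 -1.30 ± 0.19, limma adjusted p = 0.000138; -0.80 after quantile normalization). Smad2 and Smad4 missed the threshold, with log2 differences of -0.49 and -0.02 (adjusted p = 0.263 and 0.95). Nedd4l, a ubiquitin ligase that removes activated SMADs, fell by 1.27 on the log2 scale (adjusted p = 0.00017), and Fkbp1a, which binds the inactive type I receptor, by 1.39 (adjusted p = 0.00428). The co-repressor gene Tgif2 fell by 0.73, and Strap by 0.78. After quantile normalization Tgif2 and Strap missed the threshold (adjusted p = 0.0544 and 0.0898), and Strap also missed it without hCD2-negative replicate 1, 3 or 4 or any of untreated replicates 1 to 4 (0.0573 to 0.132).

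Genes that TGFB is known to induce in T cells were mostly higher. In this list of 17, which was put together with results of these arrays in view and is no independent evidence of its direction, 10 rose and 1 fell, with a median log2 difference of 1.05 (12 and 1, and 1.43, after quantile normalization). The mean level of the list lay between 6.51 and 7.24 on untreated and between 7.85 and 8.49 on hCD2-negative arrays. Itgae, the CD103 integrin chain that binds E-cadherin of epithelia, read 5.75, 6.05, 6.52, 5.48 and 7.95 in untreated and 10.03, 10.86, 9.72, 10.35 and 10.05 in hCD2-negative arrays. Untreated replicate 5 stood above its group and still below every hCD2-negative array (log2 3.85 ± 0.38, limma adjusted p = 2.13e-06). Nt5e, the ectoenzyme CD73 that makes adenosine from AMP, went from 4.72, 5.75, 6.91, 6.96 and 5.99 to 8.39, 9.57, 8.71, 9.62 and 10.01. Its groups were again apart, with a 9.2-fold rise (log2 3.19 ± 0.36, adjusted p = 7.37e-06). Entpd1, the CD39 enzyme one step before CD73, fell without overlap (log2 -2.52, limma adjusted p = 2.24e-05), so the genes of the 2 enzymes moved in opposite directions.

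Ikzf2 (Helios), a zinc finger factor of regulatory and chronically stimulated T cells, had untreated levels of 6.17, 6.64, 6.55, 6.27 and 6.65. Its hCD2-negative levels were 9.24, 10.35, 9.22, 9.55 and 9.14, all above the untreated ones (log2 3.04 ± 0.27, limma adjusted p = 7.39e-07). Cd7, a surface protein of T and NK cells, rose 4.4-fold without overlap (log2 2.12 ± 0.31, adjusted p = 0.000113). Car2, a carbonic anhydrase, was called higher (log2 2.46, adjusted p = 0.00877), but its hCD2-negative arrays ran from 8.98, 9.58 and 7.05 in study 1 to 6.62 and 5.33 in study 2, and the last lies within the untreated range of 4.49 to 5.55. The member that fell was Rgs1, a brake on chemokine receptor signalling (log2 -1.54, adjusted p = 0.00221). The other 6 members, among them Pmepa1 and Tgfbi, missed the threshold with log2 differences from 0.02 to 0.41. In the promoters available for 7 of the 17 genes, 3 held the letters CAGACA, a sequence that SMAD3 and SMAD4 can bind, against 17.5% of 11869 promoters. The CAGACA of Nt5e lies on the other strand and reads TGTCTG in the 250 bases before its start, shown because Nt5e rose among these targets (RefSeq, GRCm38.p6, chr9:88327359-88327608, plus strand, the match in capitals).
Nt5e promoter: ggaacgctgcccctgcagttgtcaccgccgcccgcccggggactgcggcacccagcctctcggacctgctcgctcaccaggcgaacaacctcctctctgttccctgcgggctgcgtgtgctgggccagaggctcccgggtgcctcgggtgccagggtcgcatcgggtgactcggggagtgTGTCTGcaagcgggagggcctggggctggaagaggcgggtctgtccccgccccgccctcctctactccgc

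The strongest rise among all named genes was that of Kit, the receptor for stem cell factor found on progenitors, mast cells and innate lymphoid cells. Untreated arrays read 5.64, 5.58, 6.21, 5.61 and 6.61, and hCD2-negative arrays 10.48, 10.77, 10.30, 10.24 and 9.99. The gap between the groups exceeded 3 log2 units, with a rise of 21.5-fold (log2 4.43 ± 0.21, limma adjusted p = 2.08e-10; 4.60 after quantile normalization). Among markers of other cells that carry KIT, of 15 granulocyte and mast cell markers 0 were called in either direction, and their mean level lay between 4.84 and 4.90 on untreated and between 4.81 and 5.12 on hCD2-negative arrays. The mast cell gene Cpa3 stayed between 4.03 and 4.65 in untreated and 4.06 and 4.43 in hCD2-negative arrays. Of 12 markers of innate lymphoid and progenitor cells, Kit and Rora rose and Id2 and Gata3 fell. Rora, a nuclear receptor of Th17 and innate lymphoid cells, differed by 0.61 (limma adjusted p = 0.0483) and was not called without untreated replicate 1, 2, 4 or 5 or hCD2-negative replicate 2, 3, 4 or 5 (adjusted p = 0.0518 to 0.131).

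Cd8a, the alpha chain of the CD8 co-receptor, rose in these CD4 cells while its partner chain did not. Its untreated arrays read 6.11, 6.57, 6.69, 6.46 and 5.81, and its hCD2-negative arrays 8.89, 9.93, 8.75, 8.60 and 7.68. The groups were apart (log2 2.44 ± 0.27, limma adjusted p = 6.82e-06). For Cd8b1 untreated arrays read 9.95, 9.68, 9.64, 10.11 and 9.26, and hCD2-negative arrays 8.90, 9.49, 8.82, 8.96 and 8.77. The groups overlapped through hCD2-negative replicate 2, and the fall of 0.74 on the log2 scale (adjusted p = 0.0152) was lost after quantile normalization (-0.25, adjusted p = 0.165) and without untreated replicate 4 (-0.63, adjusted p = 0.0558). For Cd4 the log2 difference was -0.51 (adjusted p = 0.117), and -0.02 after quantile normalization.

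**Figure D3:**
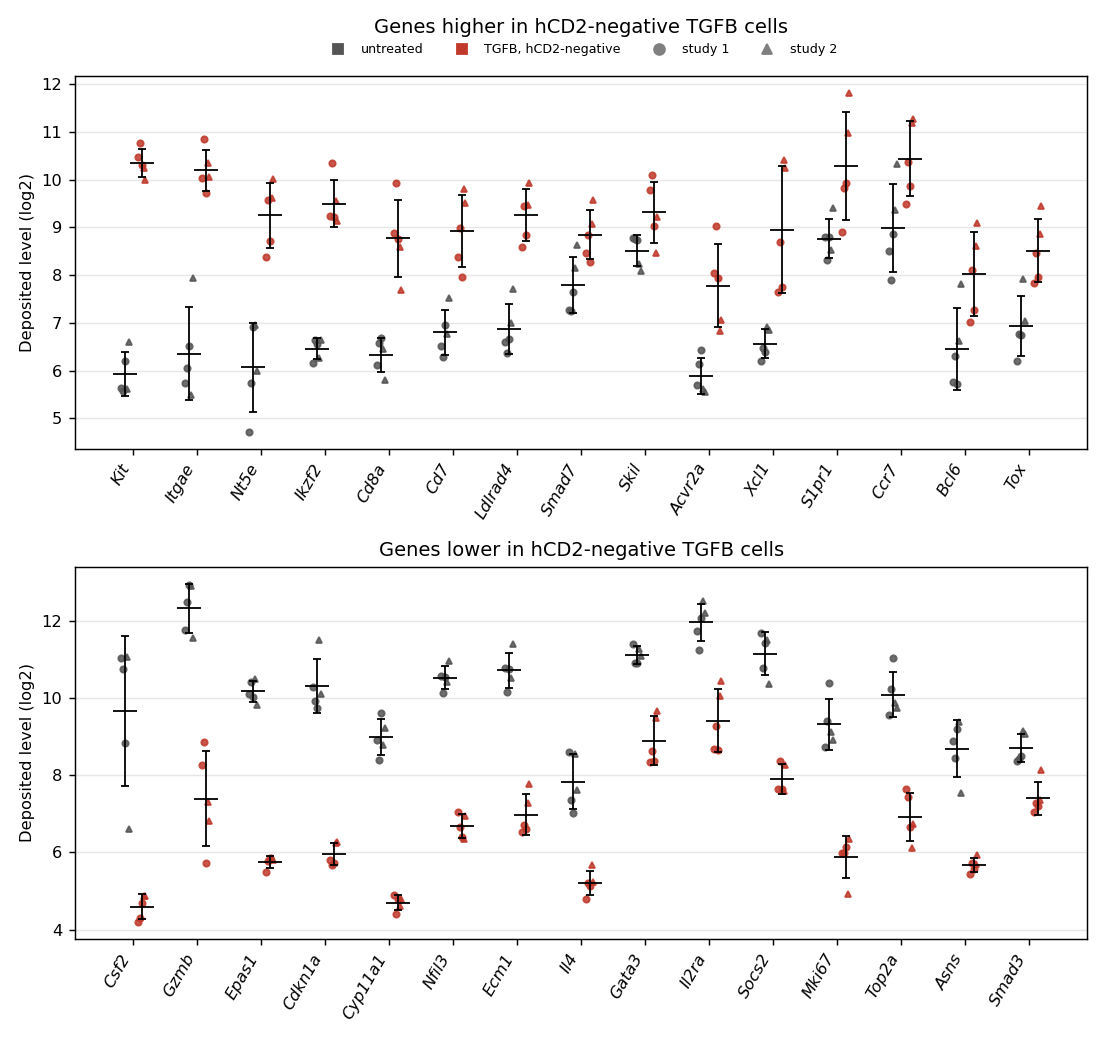
Deposited log2 levels of genes that rose or fell, by array, in untreated and TGFB hCD2-negative cells (circles study 1, triangles study 2, bars mean ± SD, n = 5). Kit, Itgae, Nt5e and Ikzf2 lie higher, and Csf2, Gzmb, Epas1 and Cdkn1a lower, in every hCD2-negative array.

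Several further genes rose outside these lists. Ift80, a part of the transport machinery of cilia, read 7.51, 7.76, 7.87, 7.18 and 7.16 in untreated and 9.72, 10.55, 9.72, 9.09 and 9.92 in hCD2-negative arrays, a 4.9-fold rise without overlap (log2 2.30 ± 0.24, limma adjusted p = 3.27e-06). St6galnac3, a sialyltransferase, rose by 2.37 (adjusted p = 6.82e-06), Neurl3 by 1.76, Actn1, an actin cross-linker, by 1.74 and Ephx1, an epoxide hydrolase, by 1.58, each without overlap of the groups. Hpgds, a prostaglandin D synthase, and Ncf1, a subunit of the phagocyte NADPH oxidase, rose by 1.62 and 1.47 (adjusted p = 0.00244 and 0.00443). The nuclear protein gene Tox (1.58) and Bcl6 (1.58), the repressor that directs follicular helper cells, rose as well, with arrays that overlapped between the groups.

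Of 12 chemokine genes 4 rose and 0 fell (4 and 0 after quantile normalization; 4 and 2 without untreated replicate 5), with a median of 0.08. Xcl1, which draws XCR1 dendritic cells, read 6.20, 6.48, 6.38, 6.91 and 6.86 in untreated arrays. Its hCD2-negative arrays read 7.65, 8.69 and 7.76 in study 1 and 10.42 and 10.25 in study 2, all above the untreated ones (log2 2.39 ± 0.29, limma adjusted p = 1.42e-05). The rise was 1.68 within study 1 and 3.45 within study 2. Ccl5, a chemokine of effector T cells, rose by 1.65, Ccl9 by 1.05 and Ccl20, the ligand of CCR6, by 0.65. Ccr6 itself was called higher (1.49, adjusted p = 0.00498), but its untreated mean of 4.07 was below the arrays' lower quartile, where the size of a difference is uncertain.

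The 17 chemokine receptor genes split into 4 higher and 5 lower (median 0.11). Genes of resting and recirculating lymphocytes did likewise, with 4 of 17 higher and 4 lower (11 and 3 after quantile normalization, 4 and 2 without hCD2-negative replicate 4, median 0.19 and 0.61). Ccr7, which guides cells to lymph node T zones, ran from 7.90 to 10.32 in untreated and from 9.50 to 11.28 in hCD2-negative arrays (log2 1.45 ± 0.25, limma adjusted p = 0.000477). S1pr1, the receptor for exit from lymph nodes, rose by 1.52 (adjusted p = 0.00298), 0.92 within study 1 and 2.43 within study 2. Foxo1, a factor of quiescent T cells that drives both of these genes, rose by 0.55 (adjusted p = 0.0171), and Pik3ip1, an inhibitor of PI3 kinase, by 1.22 (adjusted p = 0.0114). Klf2, another factor of quiescence, missed the threshold on the deposited values (0.63, adjusted p = 0.0946) and passed with the replicate block (adjusted p = 0.0408) and after quantile normalization (1.06). Il7r differed by 0.19 (adjusted p = 0.507). Of 8 GIMAP genes, a family of lymphocyte GTPases, 0 were called on the deposited values, 3 were higher after quantile normalization, and 2 were lower with the replicate block and 3 without hCD2-negative replicate 2.

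The IL-2 receptor and its STAT5 targets were lower as a group, with 17 of 21 genes down, 0 up and a median log2 difference of -1.76 (16 and 3, and -1.25, after quantile normalization). Its mean level lay between 9.16 and 10.18 on untreated and between 7.67 and 8.52 on hCD2-negative arrays. Il2ra, the alpha chain of the high-affinity receptor (CD25), read 11.74, 11.25, 12.08, 12.51 and 12.21 in untreated and 8.67, 9.27, 8.65, 10.04 and 10.44 in hCD2-negative arrays. All hCD2-negative arrays were lower, by 5.8-fold on average (log2 -2.54 ± 0.20, limma adjusted p = 1.74e-07). Socs2, a feedback inhibitor that STAT5 induces, went from 11.68, 10.78, 11.43, 11.49 and 10.36 to 7.64, 8.38, 7.64, 7.59 and 8.27. That is a 9.5-fold fall without overlap (log2 -3.24 ± 0.30, adjusted p = 1.16e-06). Cish, another SOCS gene, fell by 2.57, the survival gene Bcl2 by 2.07 and the kinase gene Pim1 by 2.28, each with its groups apart. The signalling genes Stat5a, Stat5b and Jak1 and the feedback gene Socs3 were the 4 not called. Within study 1 alone 12 of the 21 were lower (3.42% of all genes were) and within study 2 alone 12 (2.67%).

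Receptors of the TNF family that activation induces moved the same way, with 9 of 18 genes lower and 1 higher (6 and 5 after quantile normalization, median -0.62 and -0.20). Tnfrsf8 (CD30) fell by 3.13 ± 0.21, Tnfrsf4 (OX40) by 2.68 ± 0.24 and Tnfrsf9 (4-1BB) by 2.48 ± 0.39 on the log2 scale, with no overlap of arrays (limma adjusted p from 3.85e-08 to 0.000212). Tnfrsf14 (HVEM), which resting T cells carry, rose by 0.78 (adjusted p = 0.0204).

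Cytokine genes fell wherever they passed the test on the deposited values. Of 24 effector cytokine genes 13 were lower and 0 higher (13 and 2 after quantile normalization), with a median of -0.81 and -0.71. Csf2, the gene of GM-CSF, read 11.03, 10.75, 8.83, 11.06 and 6.60 in untreated and 4.20, 4.30, 4.70, 4.87 and 4.88 in hCD2-negative arrays. The hCD2-negative arrays were close together and all below the arrays' lower quartile, so the fall (log2 -5.06 ± 0.60, limma adjusted p = 1.25e-05) has an uncertain size. Lif, a cytokine of the IL-6 family, fell by 2.75 and Tnf by 1.75 without overlap. Ifng fell by 0.86 (adjusted p = 0.0351), a call that was lost without untreated replicate 2, 3 or 4 or hCD2-negative replicate 1, 4 or 5 (adjusted p = 0.0519 to 0.104).

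The Th2 genes were the most uniform of the helper lists, with 9 of 11 lower, 0 higher and all 9 without overlap of arrays (9 and 0 after quantile normalization, median -2.56 and -2.28). The list's mean level lay between 8.25 and 9.14 on untreated and between 6.27 and 6.74 on hCD2-negative arrays. Il13 went from 10.05, 8.26, 9.62, 9.27 and 9.25 to 6.37, 6.07, 6.39, 6.38 and 6.22 (log2 -3.00 ± 0.31, limma adjusted p = 2.67e-06). Il4 (log2 -2.63 ± 0.24) and Il24 (-3.83 ± 0.29) fell as well. Gata3, the factor that directs Th2 cells, read 11.40, 10.90, 10.90, 11.28 and 11.10 in untreated and 8.33, 8.63, 8.37, 9.47 and 9.66 in hCD2-negative arrays. It was 4.7-fold lower, with no overlap (log2 -2.22 ± 0.22, adjusted p = 2.13e-06). Nfil3, a bZIP factor of cytokine gene control, and Ecm1, a secreted protein that promotes exit of Th2 cells from lymph nodes, fell without overlap (log2 -3.85 and -3.75).

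Of 15 Th1 genes 8 fell and 2 rose (8 and 3 after quantile normalization, median -0.86 and -0.50). The IL-12 receptor chains were lowest. Il12rb1 read 10.05, 10.03, 9.89, 10.65 and 9.82 in untreated and 6.87, 7.58, 6.61, 6.71 and 6.91 in hCD2-negative arrays, an 8.9-fold fall (log2 -3.15 ± 0.26, limma adjusted p = 3.12e-07). Il12rb2 lay between 10.33 and 11.38 on untreated arrays, and on hCD2-negative arrays at 9.57, 9.91 and 7.54 in study 1 and at 7.26 and 5.99 in study 2, so that its fall was 1.76 within study 1 and 4.30 within study 2. Tbx21, the Th1 factor T-bet, fell by 0.98 (adjusted p = 0.00231; -0.49 after quantile normalization). Il18r1, a receptor that Th1 cells carry, rose by 1.54 without overlap (adjusted p = 0.00539), beside the chemokine gene Ccl5 above. The 12 Th17 genes split into 3 higher, Rora among them, and 3 lower.

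Cytotoxic granule genes were lower in 8 of 14 cases and higher in 0 (6 and 1 after quantile normalization, 2 higher with the replicate block, median -0.87 and -0.40). Gzmb, the main killer protease, read 11.76, 12.49, 12.94, 12.89 and 11.56 in untreated and 8.26, 8.85, 5.73, 7.30 and 6.82 in hCD2-negative arrays. The closest arrays of the groups were more than 2 log2 units apart, and the fall was 30.6-fold (log2 -4.94 ± 0.57, limma adjusted p = 9.25e-06). Gzma read 10.49, 11.16, 11.07, 11.49 and 9.56 in untreated and 9.48, 9.97, 7.61, 8.13 and 7.75 in hCD2-negative arrays. Its groups overlapped (log2 -2.17 ± 0.43, adjusted p = 0.00171). Gzmd fell by 4.03, but its family holds near-identical genes whose probes may share signal, and its hCD2-negative mean of 4.04 was below the lower quartile. Ctsw, a protease of cytotoxic cells, was not called on the deposited values (0.90, adjusted p = 0.0742) and was with the replicate block (adjusted p = 0.0359) and after quantile normalization (1.36).

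Of 17 AP-1, IRF and BATF genes, transcription factors of activated and effector cells, 7 were lower, 0 higher and 10 not called (5 and 3 after quantile normalization, 1 higher without untreated replicate 5, median -0.52 and -0.04). Batf, an AP-1 partner of IRF4, read 8.98, 8.65, 8.99, 8.76 and 9.24 in untreated and 5.93, 6.57, 5.82, 6.67 and 6.46 in hCD2-negative arrays (log2 -2.63 ± 0.25, limma adjusted p = 1.28e-06). Irf4 fell by 1.91, Atf3 by 2.21, Fosl2 by 2.13 and Prdm1 (Blimp-1) by 1.79, each without overlap. Id2, an inhibitor of E proteins, fell 5-fold (log2 -2.32 ± 0.20, adjusted p = 6.34e-07) and was the one of 9 Id and E protein genes called (1 other was higher with the replicate block or without hCD2-negative replicate 1). Among 18 genes of the Egr, Nr4a, NFAT and anergy group 3 rose and 4 fell, and Nr4a1 (Nur77), an early gene of T cell receptor signalling, rose by 1.09 (adjusted p = 0.00309), as did Dgka, an anergy gene that removes diacylglycerol, by 0.74 (adjusted p = 0.0116). Of 12 DUSP and Sprouty genes, brakes on MAP kinases, 7 fell and 0 rose, among them Dusp6 (-1.59). Without any one of untreated replicates 1 and 4 and hCD2-negative replicates 1, 3 and 4 that count was 4, and after quantile normalization 4 fell and 1 rose.

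Genes of the regulatory T cell signature, which those cells express at high levels, were mostly lower, with 12 of 22 down and 3 up (12 and 4 after quantile normalization, median -1.46 and -1.04). Itgae, Nt5e and Ikzf2 rose, as given above. Il2ra, Entpd1 and Tnfrsf4 fell. Il10 read 7.48, 4.64, 9.21, 8.09 and 6.95 in untreated arrays and between 3.44 and 3.73 in hCD2-negative arrays, all below the arrays' lower quartile (log2 -3.65 ± 0.54, limma adjusted p = 0.00013). Co-inhibitory and follicular genes were mixed, with 3 of 16 higher and 4 lower, and Pdcd1lg2, the PD-L2 ligand, fell by 2.18 (adjusted p = 3.94e-05).

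Genes of cell division fell in a larger share of their members than any other list described here. Of 64 mitosis genes 60 were lower and 1 higher, and for 59 of the 64 every hCD2-negative array lay below every untreated one (58 lower and 1 higher after quantile normalization, median -2.06 and -1.75). The mean level of the list lay between 7.44 and 8.79 on untreated and between 5.84 and 6.15 on hCD2-negative arrays. Within study 1 alone 44 were lower and within study 2 alone 43, and 53 were without the narrow arrays. Mki67, the proliferation marker Ki-67, read 8.74, 9.41, 10.40, 9.13 and 8.90 in untreated and 5.98, 5.98, 6.13, 4.93 and 6.34 in hCD2-negative arrays (log2 -3.44 ± 0.39, limma adjusted p = 8.94e-06). Top2a, the topoisomerase that untangles chromosomes, read 9.55, 10.22, 11.03, 9.88 and 9.73 against 7.63, 7.44, 6.66, 6.12 and 6.73 (log2 -3.17 ± 0.28, adjusted p = 7.53e-07). Both genes were lower in every hCD2-negative array than in any untreated one.

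The spindle genes Tpx2 (log2 -3.50), Nusap1 (-3.39) and Kif23 (-3.36) and the kinase gene Cdk1 (-2.58) fell without overlap of arrays. The mitosis gene that rose was Smc4, a condensin subunit that compacts chromosomes. It read 9.22, 9.79, 10.11, 9.09 and 8.98 in untreated and 10.74, 11.24, 10.76, 10.11 and 10.67 in hCD2-negative arrays (log2 1.27 ± 0.23, limma adjusted p = 0.000952). The highest untreated array, replicate 3, equalled the lowest hCD2-negative array, replicate 4. Smc4 is the direct neighbour of Ift80 among protein-coding genes in the GRCm38.p6 annotation, and the genes do not overlap there.

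Of 53 DNA replication genes 48 were lower and 0 higher, 41 of the list without overlap (46 lower after quantile normalization, median -1.35 and -1.0). Uhrf1, which carries DNA methylation through replication, fell by 2.67, the checkpoint gene Clspn by 2.23 and the polymerase gene Pole by 2.05. Orc1, of the complex that marks replication origins, read 7.33, 6.86, 7.25, 6.96 and 6.03 in untreated and 4.87, 4.55, 4.67, 4.66 and 4.68 in hCD2-negative arrays. Its groups were apart (log2 -2.20 ± 0.21, limma adjusted p = 1.26e-06), with all hCD2-negative arrays below the arrays' lower quartile. Among 15 cyclin D and CDK inhibitor genes 7 fell and 0 rose. The G1 kinase gene Cdk6 fell by 2.83 and its cyclin gene Ccnd2 by 1.19.

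The inhibitor gene Cdkn1a (p21), which blocks cyclin-dependent kinases, fell with them: it read 10.28, 9.92, 9.73, 11.51 and 10.11 in untreated and 5.81, 5.68, 5.73, 6.23 and 6.28 in hCD2-negative arrays. That was a 20.6-fold difference, with a gap of more than 3 log2 units between the groups (log2 -4.36 ± 0.22, limma adjusted p = 3.36e-10). Cdkn1b (p27), the inhibitor of resting T cells, missed the threshold on the deposited values (0.58, adjusted p = 0.139) and passed it after quantile normalization (1.08).

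The promoters of the division genes were searched for known motifs from 250 bases before the start site to a short stretch after it, on both strands. The cell cycle homology region (CHR, TTTGAA or TTTAAA), bound by the MuvB complexes that time mitotic genes, was in 40 of 55 mitosis promoters (72.7%), against 23.2% of all 11869. The CCAAT box, CCAAT, was in 37 of 55 (67.3%), against 38.5%, and both were in 31 of 55, against 9.3%. An E2F site (TTTGGCGC, TTTCGCGC, TTTCCCGC or TTTGCCGC) was in 17 of 44 replication promoters (38.6%), against 3.34%. Over all genes with a promoter sequence, 16.2% of those with a CHR and 17.6% of those without were lower. For the CCAAT box these shares were 18.8% and 16.3%, and for the E2F site 30.0% and 16.8%. Top2a and Orc1 are shown because they fell and their promoters carry these motifs, as 250 bases up to the start site with the matches in capitals (RefSeq, GRCm38.p6). The Top2a promoter lies at chr11:99024190-99024439, minus strand, with CHR and CCAAT matches on either strand, and that of Orc1 at chr4:108579204-108579453, plus strand, with an E2F site.
Top2a promoter: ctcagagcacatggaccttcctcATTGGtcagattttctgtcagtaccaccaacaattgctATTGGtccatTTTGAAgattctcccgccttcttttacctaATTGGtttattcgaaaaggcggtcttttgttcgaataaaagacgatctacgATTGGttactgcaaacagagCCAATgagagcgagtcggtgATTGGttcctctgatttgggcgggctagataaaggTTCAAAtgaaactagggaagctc
Orc1 promoter: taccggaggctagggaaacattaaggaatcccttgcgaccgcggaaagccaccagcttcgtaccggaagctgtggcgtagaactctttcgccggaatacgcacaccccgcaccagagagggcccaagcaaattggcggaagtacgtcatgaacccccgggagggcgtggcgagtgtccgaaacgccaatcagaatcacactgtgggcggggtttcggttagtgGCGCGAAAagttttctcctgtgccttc
The Top2a sequence holds 2 CHR and 6 CCAAT matches, and the Orc1 sequence 1 E2F match close to its start. A match describes letters in the window and does not show that a factor bound there.

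Genes of biosynthesis and of the stress pathways that accompany it were lower in parallel. Of 30 genes of the ATF4 pathway, amino acid supply and tRNA charging, 24 fell and 0 rose (24 and 0 after quantile normalization, median -1.51 and -1.06). Asns, asparagine synthetase, read 8.88, 8.44, 9.19, 9.38 and 7.55 in untreated and 5.43, 5.73, 5.56, 5.71 and 5.93 in hCD2-negative arrays. It was 8.1-fold lower with no overlap (log2 -3.02 ± 0.30, limma adjusted p = 2.36e-06). Slc7a5, the transporter of large neutral amino acids, fell by 2.51, the folate enzyme gene Mthfd2 by 1.65, Trib3, a pseudokinase that ATF4 induces, by 1.74 and Atf4 itself by 1.89.

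Of 28 genes of endoplasmic reticulum chaperones and the unfolded protein response, 25 fell and 0 rose (21 and 0 after quantile normalization, median -1.10 and -0.61). Ero1a, the oxidase that drives disulphide formation, read 11.54, 10.86, 11.61, 10.70 and 11.80 in untreated and 8.28, 8.64, 8.43, 8.57 and 9.05 in hCD2-negative arrays (log2 -2.71 ± 0.28, limma adjusted p = 3.74e-06). Xbp1, the factor of that response, fell by 2.10, and the chaperone genes P4hb (log2 -1.69), Hsp90b1 (-1.51) and Canx (-1.26) fell too, all without overlap. Fewer were called without the narrow arrays, 12 of the 28 and 15 of the 30 of the ATF4 list.

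The CARE motif (TGATGNAA), which ATF4 binds, was in 9 of 22 promoters of the ATF4 list (40.9%), against 3.02% of all. The endoplasmic reticulum stress element (ERSE, CCAAT, 9 further bases and CCACG) was in 8 of 24 promoters of the chaperone list (33.3%), against 0.126%. Over all genes 15% of those with a CARE and 17.3% of those without fell. For the ERSE 7 of 15 genes with it and 17.2% of those without fell, but 8 of these 15 belong to the chaperone list itself. Asns (chr6:7693210-7693459, minus strand) and Canx (chr11:50325674-50325923, minus strand) are shown as fallen members with these motifs (RefSeq, GRCm38.p6, matches in capitals).
Asns promoter: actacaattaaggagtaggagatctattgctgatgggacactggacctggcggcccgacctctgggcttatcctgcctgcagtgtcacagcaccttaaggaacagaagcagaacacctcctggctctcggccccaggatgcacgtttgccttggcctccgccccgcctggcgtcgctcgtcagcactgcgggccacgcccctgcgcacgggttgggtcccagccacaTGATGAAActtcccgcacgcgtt
Canx promoter: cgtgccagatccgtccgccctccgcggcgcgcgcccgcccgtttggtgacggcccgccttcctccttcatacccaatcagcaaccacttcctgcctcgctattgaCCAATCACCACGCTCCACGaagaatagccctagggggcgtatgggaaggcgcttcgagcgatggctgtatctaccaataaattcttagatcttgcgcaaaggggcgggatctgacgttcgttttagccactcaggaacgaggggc
The Asns match is a CARE near its start site and the Canx match an ERSE.

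Oxygen and sugar metabolism followed. Of 22 hypoxia genes 12 fell and 0 rose (10 and 1 after quantile normalization, median -1.01 and -0.49). Epas1, the oxygen-sensing factor HIF-2 alpha, read 10.11, 10.41, 10.03, 10.50 and 9.83 in untreated and 5.49, 5.77, 5.86, 5.85 and 5.80 in hCD2-negative arrays. The arrays within each group differed by less than 1 log2 unit, and the groups by 21.4-fold (log2 -4.42 ± 0.14, limma adjusted p = 3.48e-13). Hif1a fell less, by 1.39, and the oxygen-dependent hydroxylase genes P4ha2 and Egln3 by 2.87 and 2.27. In glycolysis and the pentose phosphate pathway 15 of 23 genes fell and 0 rose (12 and 0 after quantile normalization, median -0.79 and -0.47), among them Hk2 (-2.35), Tpi1 (-2.0) and Aldoa (-1.51), and the glucose transporter gene Slc2a3 fell by 1.92.

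In cholesterol and fatty acid synthesis 22 of 27 genes fell and 0 rose (median -0.93). This list depended more on scale, with 14 lower after quantile normalization (median -0.47). Without the narrow arrays 10 were lower. Lss read 8.60, 8.29, 8.76, 9.40 and 9.64 in untreated and 6.43, 6.93, 6.40, 7.02 and 7.24 in hCD2-negative arrays (log2 -2.13 ± 0.19, limma adjusted p = 7.3e-07). Fdft1 and Sqle, which make and oxidise squalene, fell by 2.03 and 1.86, so these 3 consecutive enzymes fell together, each without overlap. The sterol element TCACNCCAC was in 1 of 20 promoters of the list, against 1.15%. Cyp11a1, the enzyme that turns cholesterol into pregnenolone, read 8.92, 8.39, 9.62, 8.77 and 9.23 in untreated and between 4.39 and 4.89 in hCD2-negative arrays, all below the arrays' lower quartile (adjusted p = 1.22e-10).

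**Figure D4:**
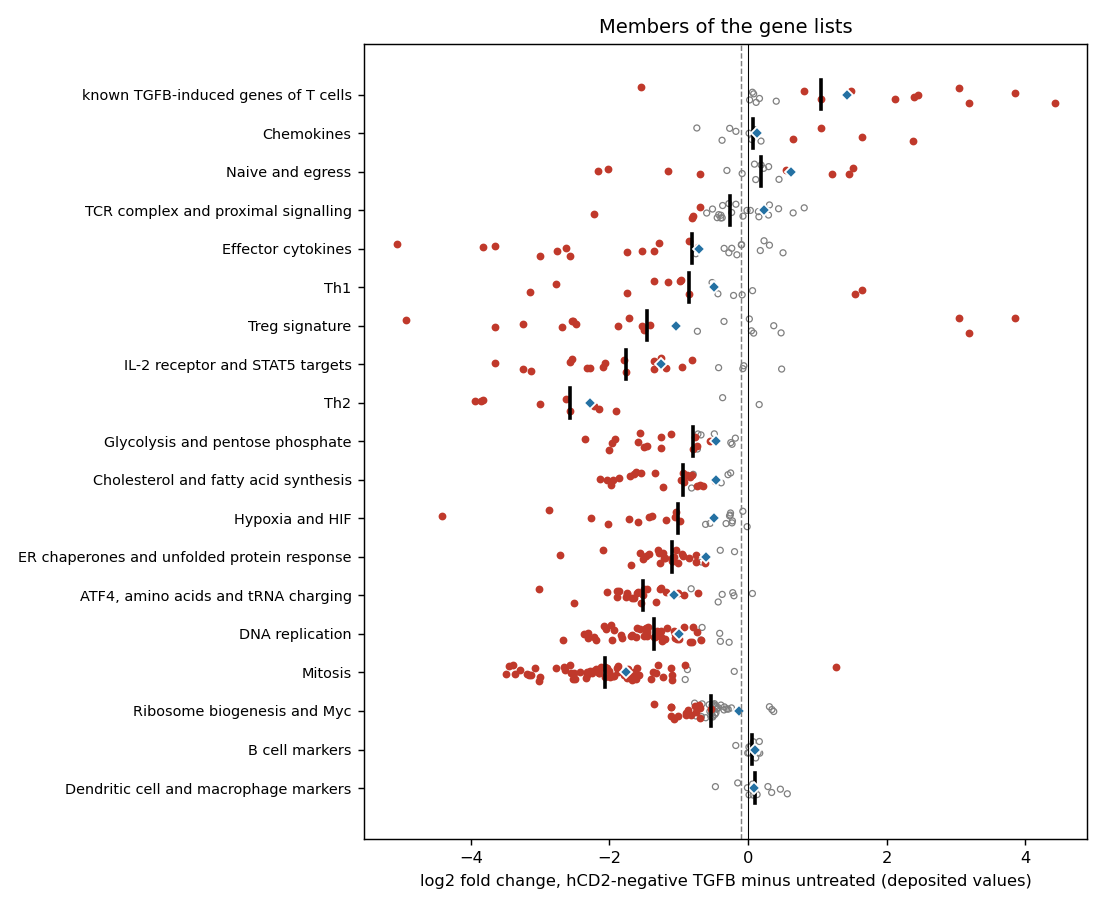
Log2 fold changes (hCD2-negative minus untreated) of the members of selected gene lists on the deposited values. Red points were called by limma at an adjusted p under 0.05 and open points were not; black bars are list medians, blue diamonds the medians after quantile normalization and the dashed line the median of all genes. Mitosis, DNA replication, ATF4, unfolded protein and IL-2 lists lie below that line. Known TGFB-induced genes lie above it, in a list put together with results of these arrays in view.

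For genes of protein synthesis and respiration the counts depended on the scale of the arrays and on which arrays were kept. Of 47 ribosome biogenesis genes and Myc 16 were lower on the deposited values, 6 after quantile normalization and 1 without the narrow arrays. The count was 6 to 8 without any one of untreated replicates 1, 3 and 4 or hCD2-negative replicates 1, 3 and 4, and 26 and 25 without untreated replicate 5 and hCD2-negative replicate 2. Myc, the transcription factor that drives them, fell by 1.36 (limma adjusted p = 0.000532; -0.87 after quantile normalization). Mitochondrial ribosomal protein genes were lower in 35 of 68 and genes of the respiratory chain in 23 of 54 on the deposited values, and in 18 and 13 after quantile normalization. Without the narrow arrays 2 and 3 were. Leaving out untreated replicate 3 or 4 or hCD2-negative replicate 1, 3 or 4 gave 13 to 22 mitochondrial ribosomal genes and 12 to 13 respiratory genes. Proteasome subunits fell in 14 of 33 cases, 13 after quantile normalization and 2 without the narrow arrays.

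Survival and antiviral genes were lower in part. Of 23 Bcl2 family and death genes 10 fell and 1 rose (7 and 3 after quantile normalization), and the 1 that rose was not called with the replicate block or without any array other than untreated replicate 5. Besides Bcl2 these included Bcl2l1 (Bcl-xL, log2 -1.26) and the inflammatory caspase gene Casp4 (-2.55). Of 25 interferon-stimulated genes 11 fell and 0 rose (8 and 1 after quantile normalization), and 6 or 7 without untreated replicate 4 or hCD2-negative replicate 1, 3 or 4. Ifitm3, a membrane protein that blocks virus entry, read 9.55, 9.69, 9.78, 10.58 and 8.35 in untreated and 5.07, 6.07, 5.44, 4.91 and 5.18 in hCD2-negative arrays. It stood apart by more than 2 log2 units (log2 -4.26 ± 0.37, limma adjusted p = 5.14e-07). Isg20 fell by 1.75. Other strong falls outside these lists were those of Tube1, a centriole tubulin (-4.23), and F2rl2, a thrombin receptor (-3.74).

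Most T cell markers missed the threshold. Of 13 genes 0 rose and 2 fell (6 and 1 after quantile normalization, and 0 and 1 without untreated replicate 1 or hCD2-negative replicate 1, 3 or 4), and their mean level lay between 9.93 and 10.40 on untreated and between 9.45 and 10.44 on hCD2-negative arrays. Cd3e, of the receptor complex, differed by 0.30 (limma adjusted p = 0.318; 0.71 and called after quantile normalization), while Thy1 fell by 1.11 (adjusted p = 0.00355). In the T cell receptor complex and its proximal signalling 0 of 26 genes rose and 4 fell, a count of 2 without hCD2-negative replicate 3 or 4 (and 1 rose without untreated replicate 3), and quantile normalization gave 12 higher and 3 lower. Of 10 B cell markers 0 were called, with mean levels from 4.98 to 5.25 on untreated and from 5.04 to 5.26 on hCD2-negative arrays, and the B cell gene Ms4a1 stayed at or under 4.24. Of 14 dendritic cell and macrophage markers 0 were called (1 higher with the replicate block or without untreated replicate 1 or 5 or hCD2-negative replicate 2), with mean levels from 5.26 to 5.6 and from 5.36 to 5.6, and Csf1r stayed between 4.82 and 5.25.

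NK cell markers differed in direction. Of 5 measured genes 1 fell, Eomes, a T-box factor of NK and CD8 T cells (log2 -0.97, limma adjusted p = 0.00284). Klrd1 (CD94) read 7.76, 8.12, 9.10, 8.29 and 6.23 in untreated and 9.85, 10.21, 8.90, 9.0 and 8.43 in hCD2-negative arrays. Its difference of 1.38 missed the threshold (adjusted p = 0.0571) and passed with the replicate block (adjusted p = 0.0444), without untreated replicate 3 or 4 (0.0437 and 0.0471) and after quantile normalization (1.84). Ncr1, which defines NK cells, stayed between 3.61 and 4.08 in both groups, near the floor of the arrays. The mean level of the list lay between 5.76 and 6.89 on untreated and between 5.95 and 6.37 on hCD2-negative arrays.

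The sorted TGFB fractions were compared to see where the reporter-negative cells differ from the reporter-positive ones. Limma called 23 genes (0.155%), 19 higher (0.128%) and 4 lower (0.0269%) in hCD2-positive cells, with 620 at an unadjusted p under 0.05. The groups did not overlap in 99 genes (0.666%). Quantile normalization gave 136 (0.915%), and leaving out hCD2-positive replicate 3, the array of narrowest range, gave 88. The counts were 15 without hCD2-positive replicate 1, and 0 within study 1 and 0 within study 2 (324 and 242 at an unadjusted p under 0.05). The same hCD2-negative arrays enter this comparison and the one above, so the fold changes of the 2 comparisons are not independent of each other.

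Several IL-2 targets that had fallen in hCD2-negative cells stood higher in the hCD2-positive ones, in 4 of 21 genes of that list. Socs2 read 10.78, 10.78, 10.12, 10.51 and 10.55 in hCD2-positive arrays, all above the highest hCD2-negative array of 8.38 (log2 2.64 ± 0.30, limma adjusted p = 0.000369). Pim1 read 11.81, 11.36, 9.78, 11 and 10.64, again above every hCD2-negative array (2.05 ± 0.31, adjusted p = 0.0051). Il2ra read 10.73, 10.58, 9.87, 11.49 and 11.62 and overlapped the hCD2-negative range of 8.65 to 10.44. Kit went the other way, with hCD2-positive arrays at 8.58, 8.26, 7.78, 8.38 and 7.98, between the untreated and hCD2-negative ones and apart from both. Cd8a read 7.60, 7.43, 7.08, 6.84 and 6.12 in hCD2-positive arrays, all below the hCD2-negative ones (-1.76), and Gzma 6.20, 6.37, 4.73, 5.14 and 5.08 (-3.08), below both other groups.

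Some genes were higher in hCD2-positive cells and had not been called lower in the hCD2-negative ones. Stxbp6 read 7.75, 7.44, 6.65, 7.75 and 7.20 in hCD2-positive arrays, while untreated and hCD2-negative arrays both lay between 4.5 and 5.6 (log2 2.26 ± 0.25 between the fractions). Cybb, the partner of Ncf1 in the NADPH oxidase, read 6.95, 7.26, 6.12, 6.39 and 6.83 in hCD2-positive arrays, above all hCD2-negative ones (1.31 ± 0.18, limma adjusted p = 0.00273). It was also called higher in hCD2-negative than in untreated cells (0.54, limma adjusted p = 0.0444). That call was lost without any one untreated array or hCD2-negative replicate 1, 3, 4 or 5 (adjusted p = 0.0534 to 0.117). Tlr1, a sensor of bacterial lipoproteins, was apart between the fractions too (1.79 ± 0.26), but had fallen by 1.02 from untreated to hCD2-negative cells (adjusted p = 0.0109). In the mitosis list 0 of 64 genes were called between the fractions, with mean levels from 6.44 to 7.37 on hCD2-positive arrays, above the hCD2-negative range of 5.84 to 6.15 and below the untreated one.

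**Figure D5:**
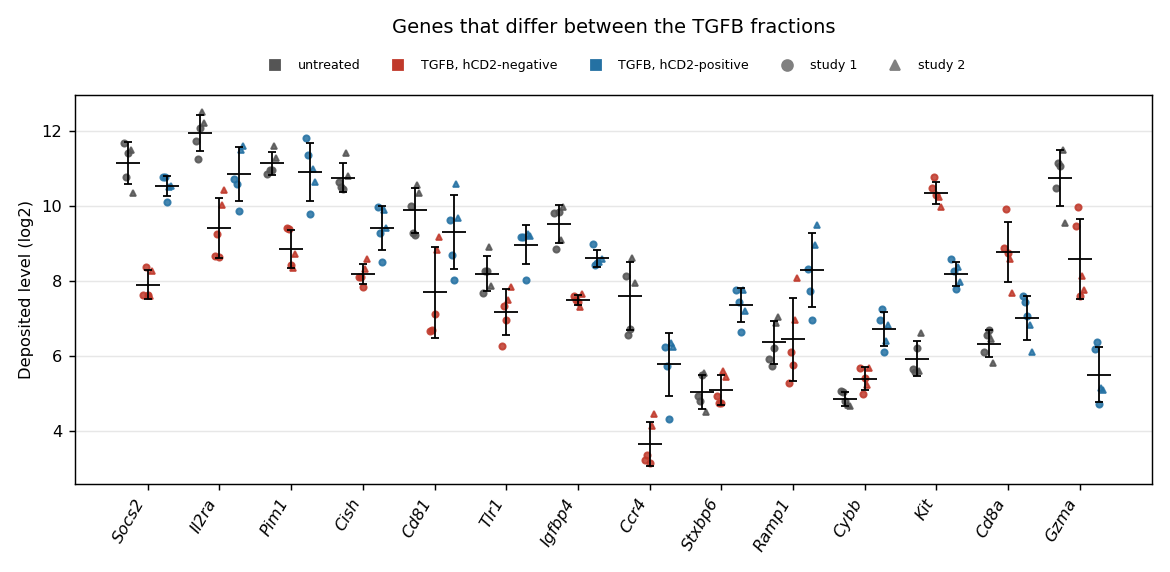
Deposited log2 levels by array of genes called between the TGFB fractions, in untreated, TGFB hCD2-negative and TGFB hCD2-positive cells (circles study 1, triangles study 2, bars mean ± SD, n = 5). Socs2 and Pim1 are lowest in hCD2-negative cells, and Kit and Cd8a highest there.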

How the data were processed

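Each sample's total RNA, taken from a frozen cell pellet, was turned into biotinylated cDNA and hybridised to 1 mouse exon array, per the labels' protocols. The authors deposited log2 values made with RMA in Affymetrix Expression Console 1.2 with annotation of build mm8, per the submitters' processing notes. Among 23332 transcript clusters, those with 1 symbol gave 14860 genes, keeping the brighter cluster (highest mean over all arrays) of 135 genes. Foxp3 and Flicr share a cluster, which was tested among all clusters. Arrays give no read depth, and their number limits the precision.

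The test was that of limma 3.58.1 (R 4.3.3), 2-sided, in 1 fit of all 21 arrays with 5 group means and a study term. Benjamini-Hochberg adjustment ran over all genes, and a gene was called at an adjusted p under 0.05. A ± gives the standard error of a log2 difference, unless it is marked as SD. Comparisons are between 5 and 5 arrays. The fit was checked on simulated data. The simulated arrays did not differ in range and few of their genes changed, so that check does not cover the scale of these arrays.

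Replicate numbers come from the sample titles. Deviations from the group means of same-numbered untreated and hCD2-negative arrays correlated by 0.381, 0.117, 0.176, 0.386 and 0.278. As each was above 0.1, fits with the replicate number as a block are given where they change the call of a named gene or shift a list count strongly. Arrays of the same study with different numbers correlated by 0.079 to 0.635, so same-numbered arrays stood no closer than other arrays of their study. With study removed as well the same-number correlations were 0.046, -0.081, -0.078, -0.263 and -0.263. The values of replicates 4 and 5 are equal by construction, as study 2 holds only these replicates of each group.

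Named genes follow a rule: a fixed panel, the 20 highest and 20 lowest called genes on each scale, per list the 6 genes of lowest p (all genes of lists with up to 8), the 10 highest and 10 lowest between the TGFB fractions, all TGFB pathway genes, defining markers of other cells, and the gene of a list most against its direction. The genes, the lists and the comparison were chosen with earlier results of these data known. Lists are described by counts and medians, with no test of the list.

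Tried beside this were a fit with no study term, a block for the replicate number, a filter on dim genes, quantile normalization, centring of arrays, another variance prior, array weights, all clusters, the mean of a gene's clusters, a 2-fold minimum, each study alone, the compared arrays alone and leaving out each array. Leaving out the narrow arrays and a covariate for array range were chosen after seeing the data.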

Additional observations from a re-analysis of the deposited data

Results flagged for a closer look

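Dixon's 95% criterion was applied to groups of 5 arrays, over levels of genes and the Foxp3 cluster and over array medians and interquartile ranges. It flags about 1 in 20 independent groups by chance, but groups on the same arrays are not independent. A single array stood apart from the other 4 in 15 of 314 groups.

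Untreated replicate 5 was the array set apart in 5 of them: Pik3ip1 at 9.09 (nearest other array 7.60), Tube1 at 8.87 (10.18), Itgb1 at 8.01 (9.76), Bcl2l1 at 7.64 (8.06) and Il7r at 12.05 (11.25), all as deposited log2 levels. Other untreated arrays were set apart for Il12rb1 (replicate 4, 10.65, nearest 10.05), Kif23 (replicate 3, 9.38, nearest 8.65), P4ha2 (replicate 1, 9.12, nearest 8.33) and P4hb (replicate 2, 9.91, nearest 10.34). In hCD2-negative cells this held for Cd8b1 (replicate 2, 9.49, nearest 8.96), Ncf1 (replicate 2, 10.09, nearest 9.19), Epas1 (replicate 1, 5.49, nearest 5.77), Pdcd1lg2 (replicate 1, 5.67, nearest 5.89), Smad3 (replicate 5, 8.14, nearest 7.35) and Mki67 (replicate 4, 4.93, nearest 5.98).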

How the results depend on the processing

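The 2811 calls between hCD2-negative and untreated cells became 5817 with array weights, 1076 with a 2-fold minimum, 532 in study 1 alone, 441 in study 2 alone and 1010 without the narrow arrays, and 1817 to 3794 when arrays were left out in turn. The replicate block gave 3388, and among the genes listed under the naming rule it changed only the calls given above for Ctsw, Klf2, Klrd1 and Tgfbr2. Its larger shifts in list counts are given with those lists, apart from lists not named. Smaller shifts are not given, such as 14 interferon-stimulated genes lower in place of 11 and 17 proteasome subunits in place of 14. For the TGFB fractions, 23 calls became 11 without the study term, 136 after quantile normalization, 49 with centred arrays, 3489 with array weights, 4 in a fit of the compared arrays alone, 0 in study 1, 0 in study 2, 9 without the narrow arrays, 134 with array range as a covariate, and 15 to 88 when arrays were left out in turn. The block gave 26. The cause of these differences was not tested. Tgfbr1, uncalled at -0.20, had the opposite sign after quantile normalization (0.285), with centred arrays (0.008), in study 2 alone (0.255), without the narrow arrays (0.399) and with array range as a covariate (0.289).

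Of 152 genes listed under the naming rule for the comparison with untreated cells, 142 were called. Of these, 135 were still called without each array in turn, 139 after quantile normalization, 127 without the narrow arrays, 94 in study 1 alone and 92 in study 2 alone, and 0 changed direction in any setting. Many were listed for a large difference, a low p or a call on both scales, so these counts partly follow from the choice. The list is not the set of genes named above. Some listed genes are not named there, and uncalled genes such as Smad2, Smad4, Tgfb2 and Tgfb3 are named but were not listed. Of all 2811 calls, 1966 were shared in the same direction after quantile normalization and 856 without the narrow arrays. Study 1 alone shared 530 and study 2 alone 426. The share of lower genes among the calls was 89.2% as deposited, 50.7% after quantile normalization, 53.7% with centred arrays, 54.6% with array range as a covariate and 70.8% without the narrow arrays. Levels under the lower quartile of the arrays, 4.93 to 5.02, limit the size of a fall.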

Other observations

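Known targets of p53, the damage-responsive factor, were lower in part. In a list chosen after the values were seen, 15 of 23 measured genes fell and 0 rose in hCD2-negative cells (10 and 3 after quantile normalization), with a median log2 difference of -0.89 (-0.43 after quantile normalization). Beside Cdkn1a, these included Plk2, a polo-like kinase gene that read 8.78, 7.86, 7.34, 8.07 and 8.95 in untreated and 4.83, 4.66, 4.91, 4.81 and 5.26 in hCD2-negative arrays (log2 -3.31 ± 0.23, limma adjusted p = 6.1e-08). The groups were apart, and the hCD2-negative arrays lay around the lower quartile of the arrays. Mdm2, the ligase that degrades p53, fell by 1.29 (adjusted p = 0.00225).

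Of 9 genes of metallothioneins, zinc and oxidant response, also listed after the values were seen, 5 fell and 0 rose (4 and 2 after quantile normalization). Mt2, a zinc-binding metallothionein, read 9.03, 7.47, 10.05, 10.62 and 12.20 in untreated and 5.31, 6.07, 3.87, 7.20 and 7.97 in hCD2-negative arrays, so that arrays overlapped across studies while each study's groups did not (log2 -3.79 ± 0.49, limma adjusted p = 3.02e-05).

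Counts of 3 further families are given beside the shares of all genes, 2.05% higher and 16.9% lower (11.3% and 11.6% after quantile normalization). Of 327 solute carrier genes 7 were higher and 53 lower, and 47 and 37 after quantile normalization, with a median log2 difference of 0.03 and 0.09, so the family is near the background as deposited. Of 208 zinc finger genes of the Zfp series 2 were higher and 22 lower, and 36 and 10 after quantile normalization. Without single arrays the higher solute carriers ranged from 3 to 16 and the lower Zfp genes from 10 to 27, and the replicate block gave 17 higher solute carriers. Of 20 core and linker histone genes 4 fell, among them the linker histone genes H1f5 (log2 -2.72) and H1f1 (log2 -2.75), and 0 rose (1 rose with the replicate block), with a median of -0.14 (0.04 after quantile normalization), a share near the background.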
